A study of Mus musculus with 4 samples.

Results

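The genes of cholesterol synthesis and of its control by SREBP2 were followed through the cells of the mouse aorta. They were listed by symbol for their place in the pathway or its control, and all 27 were found among the 32285 features of each of the 4 libraries. By role, 8 lead from acetyl-CoA to the isoprenoids, 3 from there through squalene to lanosterol, 9 from lanosterol to cholesterol, and 7 control SREBP2 or carry sterol between membranes. Each group was 1 library of single-cell RNA from dissociated aorta. On a normal diet these were WT and then LysM-DKO, and on a western diet they were WT/ApoE-/- and then LysM-DKO/ApoE-/-. Values given as 4 numbers follow that order. LysM is the name of a myeloid gene whose promoter is widely used to express Cre recombinase in macrophages and neutrophils, so a LysM-driven deletion leaves most other cells of the wall without it. The labels do not spell out DKO or name its genes, and the title of the series speaks of epsins, which help to form endocytic vesicles. The ages, the sexes and the number of animals behind a library were not given in the sources used here.

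Cells build cholesterol from acetyl-CoA by way of mevalonate, the isoprenoids, squalene and lanosterol. SREBP2, encoded by Srebf2, is a transcription factor held in the endoplasmic reticulum by SCAP and the INSIG proteins while sterols are plentiful. When sterols fall, SCAP escorts it to the Golgi, the proteases of Mbtps1 and Mbtps2 release it, and it turns on most genes of the pathway, Insig1 among them. Macrophages of an atherosclerotic wall also take up cholesterol from lipoproteins, a supply known to hold this system down.

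The promoters of 4 members on which the results turn are shown first, because SREBP2 and its partner NF-Y are known to read short words in such stretches. All are on GRCm38.p6 from RefSeq, printed 5′ to 3′ on the strand of the gene and ending before the annotated transcript. They are Hmgcs1 at chr13:119690101-119690350 on the plus strand, Insig1 at chr5:28071162-28071362 on the plus strand, Hsd17b7 at chr1:169969242-169969455 on the minus strand and Ebp at chrX:8193513-8193762 on the minus strand. Capitals mark CCAAT, or its reverse complement ATTGG, and the sterol word TCACCCCAC.
Hmgcs1: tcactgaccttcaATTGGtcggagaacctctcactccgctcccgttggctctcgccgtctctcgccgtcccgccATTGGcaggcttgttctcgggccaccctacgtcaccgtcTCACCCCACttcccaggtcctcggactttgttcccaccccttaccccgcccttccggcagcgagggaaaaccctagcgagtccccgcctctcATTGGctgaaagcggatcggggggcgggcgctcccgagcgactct
Insig1: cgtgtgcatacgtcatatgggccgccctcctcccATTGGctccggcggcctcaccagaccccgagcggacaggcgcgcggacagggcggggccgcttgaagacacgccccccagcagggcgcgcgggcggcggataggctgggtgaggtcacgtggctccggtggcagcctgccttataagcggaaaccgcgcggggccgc
Hsd17b7: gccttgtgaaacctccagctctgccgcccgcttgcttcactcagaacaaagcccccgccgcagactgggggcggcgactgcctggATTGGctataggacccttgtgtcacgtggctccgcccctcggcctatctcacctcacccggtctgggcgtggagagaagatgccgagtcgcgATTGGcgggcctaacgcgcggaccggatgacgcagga
Ebp: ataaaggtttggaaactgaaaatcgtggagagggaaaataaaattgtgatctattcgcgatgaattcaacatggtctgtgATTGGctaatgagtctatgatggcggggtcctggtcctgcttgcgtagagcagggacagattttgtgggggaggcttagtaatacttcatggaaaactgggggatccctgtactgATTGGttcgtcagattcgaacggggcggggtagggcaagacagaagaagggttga
Of the 27 members, 23 had a RefSeq promoter, and the 250 bases before the start of each were searched on both strands. These genes had 29 promoters, some having several. CCAAT, the NF-Y word, stood in 19 of the 29, and in 11120 of all 32851 RefSeq promoters, or 33.9%. The sterol word TCACNCCAC stood in 1 member, Hmgcs1, 137 bases before its start, and in 1.05% of all promoters. The capitalised words do not overlap one another in the 4 stretches. A match describes the letters in the window only.

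Barcodes were given to 6 classes by UMIs (unique molecular identifiers) of a few class genes, none of them a member. After a minimum of 1000 UMIs and a limit of 10% on mitochondrial ones, the libraries kept 7758, 8230, 13744 and 8133 barcodes, of 51281643, 50662515, 67450979 and 62510744 UMIs in all, with a median per kept barcode of 4167, 3404, 2103 and 6761. The macrophage class held 92, 208, 939 and 135 barcodes, and the B class of LysM-DKO/ApoE-/- on western diet, with 14, was left out. Marker genes that the rule did not use were at 4689 to 6138 CPM (UMIs of a gene per 1000000 UMIs of the class in that library) in macrophages against at most 222 CPM in any other class. The endothelial class held endothelial RNA mixed with much smooth muscle RNA. Its 6 endothelial markers summed to 560, 757, 188 and 294 CPM, against at most 46.5 CPM in any other class. However, 6 smooth muscle markers there reached 78.7, 67.7, 50.9 and 58.9% of their level in the smooth muscle class. Most barcodes of this endothelial class (572 of 732, 611 of 880, 311 of 394 and 347 of 417) also met the smooth muscle threshold. It is therefore called the Pecam1/Cdh5 class below. Elsewhere that smooth muscle share was 12.4 to 27.1%. Many barcodes of those classes also met the smooth muscle threshold, a larger share of them on normal diet. In macrophages these were 52 of 92, 128 of 208, 393 of 939 and 46 of 135. In T cells they were 444 of 738, 449 of 645, 62 of 315 and 14 of 33. In fibroblasts they were 249 of 628, 335 of 751, 225 of 634 and 181 of 654. In the 3 B sums they were 482 of 773, 752 of 1121 and 90 of 503. Between the diets other things moved as well. Xist, the RNA of the inactive X chromosome, was at 826.5 to 1707 CPM in every class on normal diet and at most 2.01 CPM on western diet, so diet, ApoE genotype, sex and the version of the counting software cannot be told apart. The epsin genes were measured in both macrophage genotypes, with Epn1 at 81.7, 54.5, 52.4 and 42.8 CPM and Epn2 at 35.6, 33.6, 33.2 and 15.7 CPM, and reads of a 3′ kit that fall outside a deleted part do not check a deletion. Pairs of libraries shared 9 to 41 kept barcodes. In summed classes, fewer expressing cells and less RNA per cell cannot be told apart.

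The first question was whether the aortic classes differ in these genes. Summed over the 27 members, macrophages held 603, 595, 498 and 459 CPM, and the other classes held 619.5 to 853 CPM per library, so the macrophage sums lay below those of every other class. Each class was then set against the mean of the other 5 with edgeR's quasi-likelihood test on 23 sums of UMIs, with library as a block, Benjamini-Hochberg adjustment over 13819 genes and a threshold of 0.05. The 4 libraries stood as the replicates of a class although their genotypes and diets differ, so the test asks what held across them. All 27 members were among the genes tested.

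In macrophages 10 members were lower, 3 were higher and 14 were not called. Over all genes tested there, 22.4% were lower and 21.1% higher, and the median difference was -0.15 on the log2 scale, against -0.36 over the members. The lower ones lay on the stretch to the isoprenoids, on that from lanosterol to cholesterol and among the regulators. None was called lower on the stretch through squalene to lanosterol, but Fdft1 and Sqle there just missed the threshold. They were at -0.79 ± 0.33 and -0.62 ± 0.26 (edgeR, adjusted p = 0.056 and 0.059), on 30 and 51 UMIs in macrophages. On the isoprenoid stretch, Idi1, which isomerises isopentenyl diphosphate, stood at 16.8, 10.9, 9.46 and 5.70 CPM. Those 4 values lay below the 18.3 to 49.7 CPM of T cells and of the Pecam1/Cdh5 class and the 22.0 to 26.0 CPM of smooth muscle. They overlapped the 13.3 to 18.7 CPM of B cells and the 16.6 to 43.9 CPM of fibroblasts. The log2 difference was -1.06 ± 0.24 (SE; edgeR, adjusted p = 8.2e-04). Ggps1, which makes the geranylgeranyl diphosphate used to anchor small GTPases, was at 27.2, 27.3, 37.8 and 15.7 CPM in macrophages and at 49.6 to 70.8 CPM in each library of the other classes. No library of any other class reached down to the macrophage values, and the difference was -0.93 ± 0.15 (edgeR, adjusted p = 2.3e-05). Hmgcs1, the synthase whose promoter carries the sterol word shown above, gave 50.3, 43.6, 52.4 and 37.1 CPM, -0.46 ± 0.13 against the mean of the others (edgeR, adjusted p = 0.0058). The mevalonate kinase gene Mvk was lower by a similar step, -0.72 ± 0.28 (edgeR, adjusted p = 0.041). Ggps1 and Idi1 kept their calls under every alternative, and Hmgcs1 and Mvk did not.

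After lanosterol, Hsd17b7, a 3-ketosteroid reductase of the demethylation steps, was barely seen in macrophages. It gave 0, 6, 11 and 2 UMIs, or 0, 5.45, 2.81 and 2.85 CPM, where 0 UMIs allow up to 6.28 CPM. The difference was -1.91 ± 0.40 (edgeR, adjusted p = 4.2e-04). Cyp51, the lanosterol demethylase, and Sc5d, a sterol desaturase, were lower by -0.63 ± 0.25 and -0.70 ± 0.22 (edgeR, adjusted p = 0.042 and 0.011). Ebp, the sterol isomerase encoded on the X chromosome, went the other way, at 0.66 ± 0.20 (edgeR, adjusted p = 0.011). Its macrophage levels spread widely, at 4.19, 19.99, 37.8 and 51.3 CPM, and its call was lost without either western diet library. Lss, which closes squalene epoxide into lanosterol, was higher by 0.75 ± 0.28 (edgeR, adjusted p = 0.035) on 33 UMIs in all.

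Among the regulators, macrophages stood out in Insig1, which encodes the retention protein induced by SREBP2. Its macrophage levels were 228, 179, 39.9 and 57.0 CPM, and its levels in all other classes ran from 27.3 to 84.0 CPM. The macrophages of both normal diet libraries were therefore above every other class, while those of both western diet libraries lay inside the range of the others. The difference over the 4 libraries was 1.55 ± 0.31 (edgeR, adjusted p = 5.9e-04), and it ran from 1.203 to 2.09 over the alternatives, with the call kept in each. Insig2, the form of the protein not induced by SREBP2, was lower in macrophages, at 27.2, 24.5, 46.3 and 35.6 CPM and -0.45 ± 0.14 (edgeR, adjusted p = 0.013). The site-1 protease gene Mbtps1 was lower by -0.81 ± 0.18 and Stard4, whose product moves sterol between membranes, by -1.07 ± 0.30 (edgeR, adjusted p = 7.9e-04 and 0.0062). Srebf2 itself gave 52.4, 42.7, 23.3 and 31.4 CPM and Scap 8.38, 4.54, 13.04 and 14.3 CPM, and neither was called in macrophages. Fewer members than 13 were called in macrophages whichever library was left out, with 8 called without WT/ApoE-/- on western diet.

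**Figure D1:**
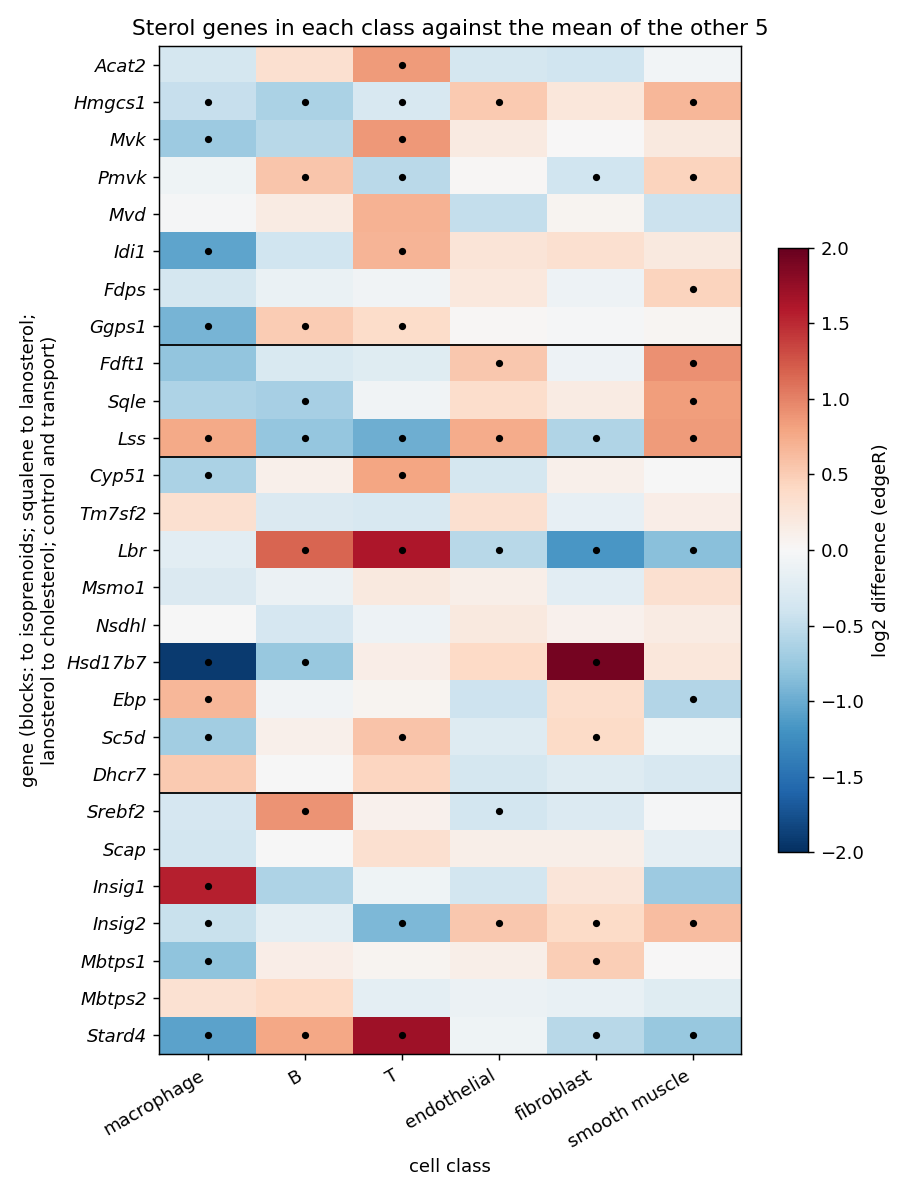
Colour gives the log2 difference of each of the 27 genes (rows, in pathway order) in each class (columns) against the mean of the other 5 classes, red higher and blue lower, with a dot where edgeR's adjusted p was at most 0.05. The macrophage column is mostly blue, with Insig1 highest at 1.55 and Lss and Ebp also called higher. Dhcr7, Tm7sf2 and Mbtps2 are red there without a dot. The Lbr row turns from red in B and T cells to blue in the wall classes.

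Lymphocytes were set apart by a sterol reductase that acts after the lanosterol demethylase. Lbr, which doubles as a receptor for lamin B in the nuclear envelope, stood at 101, 114 and 117 CPM in the 3 B sums and at 132.5, 136, 136.5 and 273 CPM in T cells. No library of another class passed 60.7 CPM, so the lymphocyte and non-lymphocyte values did not overlap. The differences were 1.16 ± 0.14 in B and 1.61 ± 0.13 in T cells (edgeR, adjusted p = 5.8e-07 and 1.1e-09), and the gene was lower in fibroblasts by -1.16 ± 0.15 and in smooth muscle by -0.84 ± 0.13 (edgeR, adjusted p = 6.4e-07 and 1.6e-05). Tm7sf2, which encodes the other enzyme of that step, was at 0 to 3.54 CPM in every sum and was called in no class. Gm26004 overlaps Lbr on the same strand and Dnah14 on the opposite strand, and Vps51 overlaps Tm7sf2 on the same strand. A share of these reads could belong to a neighbour on the same strand.

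In T cells 8 members were higher and 4 lower, beside 26.3% and 29.8% of all genes tested, with a median of 0.09 over members and -0.14 over all genes. Stard4 was among the higher ones, at 23.2, 26.2, 41.2 and 49.7 CPM and 1.69 ± 0.21 (edgeR, adjusted p = 5.8e-07). The T values lay above every sum of another class but that of B cells of WT/ApoE-/- on western diet, at 25.1 CPM. Mvk, Acat2, Cyp51, Idi1, Sc5d and Ggps1 were higher by 0.37 to 0.87, while Lss, Insig2, Pmvk and Hmgcs1 were lower by -0.97 to -0.33. Acat2, the cytosolic thiolase at the head of the pathway, lies beside the similar gene Acat3, and reads of the pair could be split between them. The T count fell to 5 with only the barcodes that met 1 class threshold, and to 7 without LysM-DKO on normal diet. In B cells 5 members were higher and 4 lower, beside 26.6% and 28% of all genes, with medians of -0.07 and -0.10. Srebf2 was among the higher, at 86.4, 71.8 and 73.6 CPM against at most 57.0 CPM in any library of another class, a difference of 0.90 ± 0.14 (edgeR, adjusted p = 2.0e-05). Without WT/ApoE-/- on western diet, 5 members were called in B cells rather than 9.

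In smooth muscle 7 members were higher and 3 lower, beside 28.2% and 25.6% of all genes, with medians of 0.04 and 0.00. The count of higher members was thus near the share of all genes, and that of lower members was below it. Hmgcs1 stood at 99.6, 101, 95.6 and 94.6 CPM, a spread of a few CPM between libraries, and was higher by 0.66 ± 0.10 (edgeR, adjusted p = 1.1e-05). All 3 genes from farnesyl diphosphate to lanosterol were higher: Fdft1, squalene synthase, by 0.91 ± 0.18, Sqle, squalene epoxidase, by 0.84 ± 0.16 and Lss by 0.85 ± 0.18 (edgeR, adjusted p = 2.5e-04, 1.1e-04 and 3.3e-04). Insig2, Fdps and Pmvk were higher by 0.44 to 0.62, and Lbr, Stard4 and Ebp were lower. Fdft1 overlaps Ctsb on the opposite strand, and Fdps overlaps Gm43738 on its own strand.

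In fibroblasts 4 members were higher and 4 lower, beside 26% and 24.6% of all genes, with medians of 0.02 and -0.05. Hsd17b7 led them, at 53.1, 67.1, 15.1 and 19.9 CPM, 1.91 ± 0.20 above the mean of the other classes (edgeR, adjusted p = 4.9e-08). On normal diet these were higher than in any other class, where the highest was 26.9 CPM, and on western diet T cells lay above them, at 17.1 and 24.8 CPM, the last on 3 UMIs. Mbtps1, Insig2 and Sc5d were higher by 0.38 to 0.50, and Lbr, Lss, Stard4 and Pmvk were lower. The fibroblast count was 4 without the library block and 2 without LysM-DKO on normal diet. In the Pecam1/Cdh5 class 4 members were higher and 2 lower, beside 27.9% and 18.5% of all genes, with medians of 0.11 and 0.06. Of these, Hmgcs1, Fdft1, Lss and Insig2 were also higher in smooth muscle, whose RNA this class carries, as the marker levels above show. Over the 6 classes 58 calls were made on members, and 25 of them held under every alternative that gave them a value.

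Outside macrophages the sensors and the transcription factor were seen in every class. Insig1 ran from 27.3 to 46.2 CPM in B cells, 37.8 to 74.5 CPM in T cells and 35.4 to 47.5 CPM in the Pecam1/Cdh5 class. In fibroblasts it was at 42.1 to 84.0 CPM and in smooth muscle at 27.6 to 39.0 CPM. Insig2 stood at 40.8 to 41.5 CPM in B cells, 24.8 to 30.7 CPM in T cells, 59.3 to 83.6 CPM in the Pecam1/Cdh5 class, 55.9 to 72.6 CPM in fibroblasts and 66.5 to 74.8 CPM in smooth muscle. It was thus above its macrophage and lymphocyte levels in every library of the wall classes. Srebf2 ran from 41.4 to 51.7 CPM in T cells, 23.6 to 50.3 CPM in the Pecam1/Cdh5 class, 32.0 to 55.9 CPM in fibroblasts and 34.8 to 57.0 CPM in smooth muscle, and those ranges overlap. Scap, the escort, was at 10.2 to 15.01 CPM in B cells, 8.28 to 18.4 CPM in T cells, at most 19.2 CPM in the Pecam1/Cdh5 class, 12.6 to 16.6 CPM in fibroblasts and 10.2 to 13.9 CPM in smooth muscle. The members called in no class were 7: Mvd, Tm7sf2, Msmo1, Nsdhl, Dhcr7, Scap and Mbtps2. Dhcr7, the last reductase of the pathway, gave 28 UMIs in all macrophages and 364 in smooth muscle, so small differences in it were not detectable at this depth. Msmo1, a methylsterol oxidase, was deeper, at 11.4 to 21.5 CPM in macrophages and 22.9 to 27.9 CPM in smooth muscle.

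The genes on which these results turn lie, on GRCm38, at chromosome 5, 28071363 to 28078662 on the plus strand (Insig1), chromosome 13, 14050659 to 14063488 on the minus strand (Ggps1), chromosome 1, 169949535 to 169969241 on the minus strand (Hsd17b7), chromosome 1, 181815335 to 181843046 on the minus strand (Lbr) and chromosome X, 8185329 to 8193512 on the minus strand (Ebp). Ggps1 overlaps Arid4b on the opposite strand, and Insig1, Hsd17b7 and Ebp overlap no annotated gene.

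**Figure D2:**
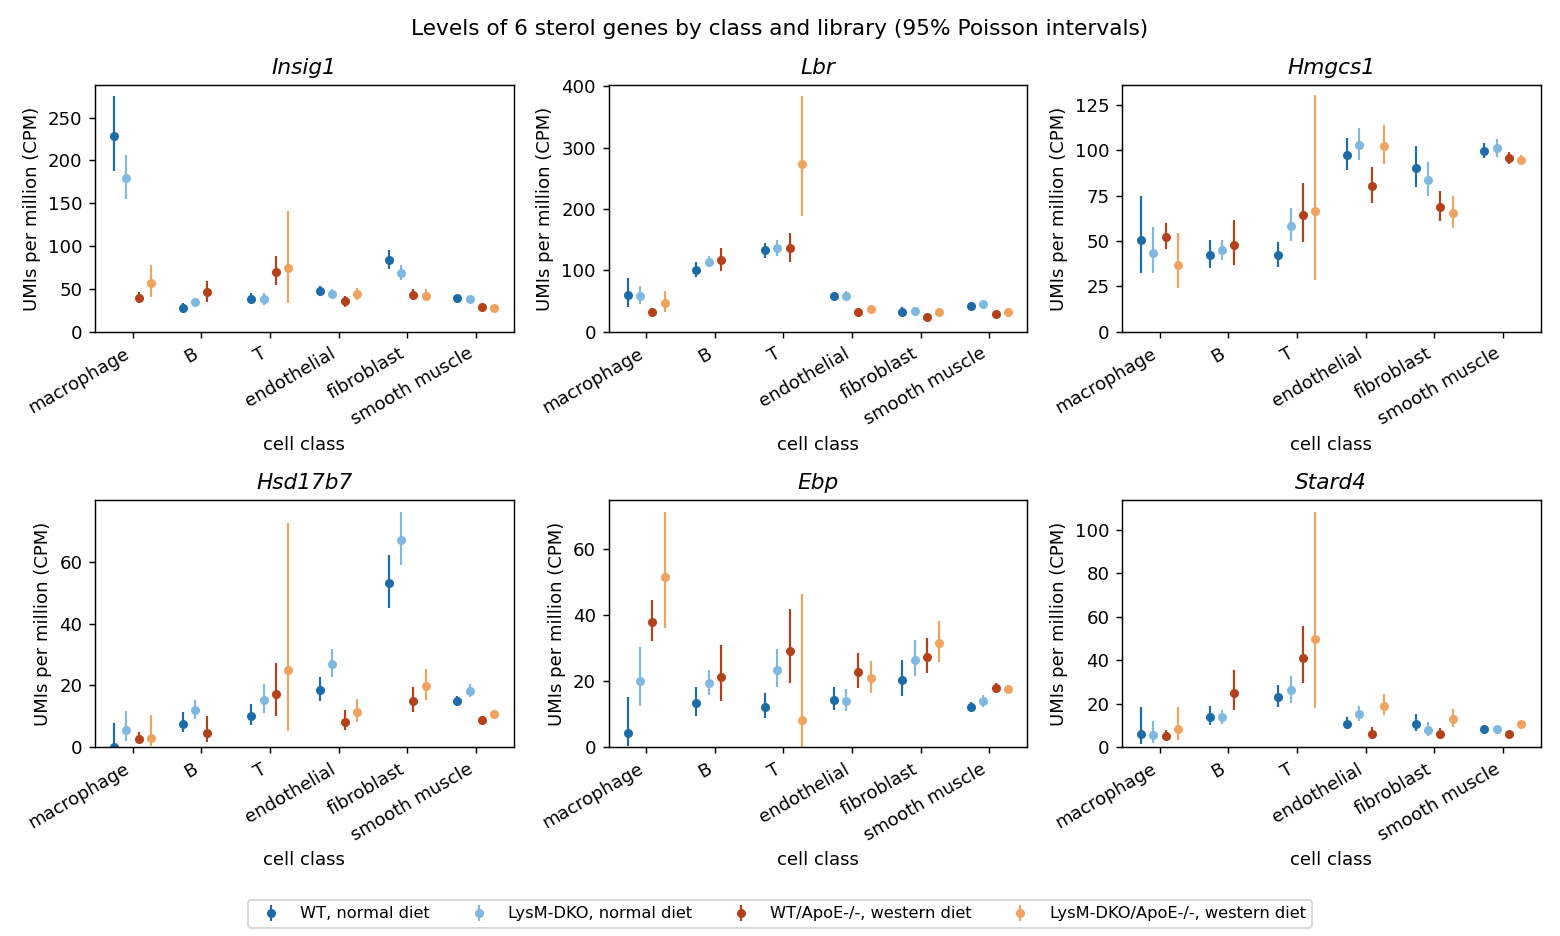
Points are levels in CPM of the class sum in each library for 6 members, by class, with exact 95% Poisson intervals that cover counting error only, each panel on its own linear axis from 0. Insig1 is at 228 and 179 CPM in macrophages of the normal diet libraries and at most 84.0 CPM in every other sum, Lbr is highest in B and T cells, and Hsd17b7 is highest in fibroblasts of the normal diet libraries.

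The second question was what the LysM-DKO genotype did within a diet. Each group is 1 library, so these values compare libraries and carry no test. A member was counted as past the fold when its log2 ratio of CPM was at least 1 in size, on at least 20 UMIs over both libraries, with an exact binomial interval away from 0. On normal diet 1 member passed in all classes together. In smooth muscle, where counts were deepest, all 27 had enough UMIs, their median ratio of LysM-DKO over WT was 0.00 (0.02 over all genes) and none was past the fold, beside 6.88% of all genes. The medians were -0.04 in macrophages, where 14 members had enough UMIs, 0.10 in T cells, 0.08 in the Pecam1/Cdh5 class and -0.11 in fibroblasts. Past the fold was 1 member in macrophages, beside 5.98% of all genes, and none in B cells, T cells, the Pecam1/Cdh5 class or fibroblasts, beside 5.16, 5.68, 4 and 3.35%. The 1 was Ebp, with 22 UMIs against 2, a log2 ratio of 1.97 (95% interval 0.23 to 5.39). Insig1 in macrophages was at 179 against 228 CPM, within 2 fold.

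On western diet both arms were ApoE-/-. The members were on balance higher in the LysM-DKO library in smooth muscle and in the Pecam1/Cdh5 class, and not in fibroblasts. In smooth muscle 13 of 27 members were higher with intervals away from 0, beside 23.6% of all genes, and 3 were lower, beside 28.2%, while none passed the fold, beside 10.8%. The median was 0.10 over members and -0.02 over all genes. Stard4 had the largest ratio there, at 10.5 against 5.96 CPM, or 0.81 (0.58 to 1.06). Fdft1 was at 18.1 against 12.1 CPM, or 0.58 (0.41 to 0.76), and Srebf2 at 40.7 against 34.8 CPM, or 0.22 (0.12 to 0.33). Scap, Mbtps1 and Ggps1 were the lower ones, by -0.46 to -0.21. Hmgcs1, at 94.6 against 95.6 CPM, was not among either. The smooth muscle class differed between these libraries in other ways too. Its median barcode held 2219.5 UMIs in WT/ApoE-/- and 6975 in LysM-DKO/ApoE-/-. Its modulated wall RNA, a sum of Lum, Vcam1, Spp1, Timp1 and Lgals3, was at 4734 CPM in WT/ApoE-/- and 415 CPM in LysM-DKO/ApoE-/-. The part of either in the smooth muscle ratios was not tested.

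In the Pecam1/Cdh5 class 9 of 24 members were higher in LysM-DKO with intervals away from 0 and none was lower, beside 15.3% of all genes that were higher and 11.2% that were lower. The median was 0.32 over members and 0.03 over all genes. Past the fold were 3, beside 6% of all genes: Stard4 at 19.1 against 6.20 CPM (1.60, 0.90 to 2.41), Cyp51 at 34.4 against 15.7 CPM (1.13, 0.66 to 1.63) and Lss at 9.85 against 4.43 CPM (1.13, 0.24 to 2.13). Srebf2 was at 43.1 against 23.6 CPM, and the other 5 were Hmgcs1, Idi1, Sqle, Msmo1 and Fdft1. The same class held less smooth muscle RNA in WT (50.9 against 58.9% of the smooth muscle level) and more modulated wall RNA, a sum of Lum, Vcam1, Spp1, Timp1 and Lgals3 with all 5 seen in each library (12480 against 2409 CPM). The part of either in these ratios was not tested. After the smooth muscle share was subtracted Cyp51 stood at 3.32, the largest of its values. Cyp51 was at 28.0 CPM in smooth muscle of WT/ApoE-/-, above the 15.7 CPM of this class. Over the alternatives Cyp51 ran from 0.97 to 3.32, Lss from 1.09 to 1.86 and Stard4 from 0.73 to 1.98. The member median ran from 0.17 to 0.33. In fibroblasts 3 of 26 members were higher with intervals away from 0, beside 16.3% of all genes, and 2 of them passed the fold, beside 6%. The median was 0.03 over members and 0.05 over all genes. The 2 were Mvd, with 17 against 5 UMIs (1.90, 0.50 to 3.79), and Stard4 at 12.9 against 5.88 CPM (1.12, 0.37 to 1.94). Stard4 was thus higher in LysM-DKO/ApoE-/- than in WT/ApoE-/- in each of the 3 wall classes, of which the Pecam1/Cdh5 class carries smooth muscle RNA. The direction was the same in macrophages, at 8.55 against 5.11 CPM, and in T cells, at 49.7 against 41.2 CPM. Each of those rests on 6 UMIs in LysM-DKO/ApoE-/-.

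In macrophages, the cells that LysM marks, the median over 24 members was 0.10 (-0.05 over all genes), no member was higher with an interval away from 0, beside 10% of all genes, and 2 were lower past the fold, beside 8.34% of all genes. Ggps1 was at 15.7 against 37.8 CPM (-1.21, -2.31 to -0.39) and Mbtps2, the site-2 protease gene, at 4.28 against 14.8 CPM (-1.59, -4.11 to -0.18). The LysM-DKO/ApoE-/- side of Mbtps2 rests on 3 UMIs, and its ratio ran from -1.73 to -0.75 over the alternatives. With only the barcodes that met 1 class threshold Ggps1 was at -2.90. In T cells, where LysM-DKO/ApoE-/- had 33 barcodes, 14 members had enough UMIs, and 1 passed the fold, beside 5.42% of all genes: Lbr, at 273 against 137 CPM (1.02, 0.41 to 1.56).

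The third question was what set western diet ApoE-/- libraries apart from normal diet libraries of the same myeloid genotype. The WT/ApoE-/- library of the previous comparison is also the numerator here, so the WT contrast and the LysM-DKO contrast on western diet share it. In macrophages of the WT arms 5 of 24 members passed the fold, beside 20.8% of all genes, and the median was 0.41 over members and 0.25 over all genes. Insig1 had the lowest ratio, at 39.9 against 228 CPM on 156 and 109 UMIs, a log2 ratio of -2.52 (-2.88 to -2.15). Srebf2 was lower too, at 23.3 against 52.4 CPM (-1.19, -1.82 to -0.47). Ebp was higher at 37.8 against 4.19 CPM (2.86, 1.30 to 6.23), Mbtps1 at 46.5 against 14.7 CPM (1.57, 0.59 to 3.001) and Fdps at 19.7 against 6.28 CPM (1.43, 0.05 to 3.96). The normal diet side of the last 3 rests on 2, 7 and 3 UMIs. In the LysM-DKO arms 3 of 13 members passed, beside 11.5% of all genes, with medians of -0.22 and 0.10. Insig1 was again the lowest, at 57.0 against 179 CPM (-1.64, -2.18 to -1.15), Pmvk was at 12.8 against 29.1 CPM (-1.13, -2.43 to -0.08) and Ebp at 51.3 against 19.99 CPM (1.35, 0.56 to 2.20). Insig1 and Ebp therefore moved in the same direction in both genotypes, each measured on libraries of its own. Ebp is X-linked, and the sex shown by Xist differed with diet. Dissociation stress genes (Fos, Jun, Hspa1a and 7 others) moved with Insig1 in macrophages, at 10800, 7881, 4844 and 6611 CPM in sum with all 10 seen in each library, and their part in the result was not tested. With only barcodes that met 1 class threshold Insig1 was at -1.79 in the WT arms and -2.23 in the LysM-DKO arms.

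In fibroblasts of the WT arms 11 of 25 members were lower with intervals away from 0, beside 18.9% of all genes, and 2 were higher, beside 26.9%. The median was -0.34 over members, where that over all genes was 0.13. Past the fold were 3, beside 16% of all genes: Hsd17b7 at 15.1 against 53.1 CPM (-1.81, -2.27 to -1.37), Idi1 at 16.6 against 43.9 CPM (-1.40, -1.86 to -0.96) and Sc5d at 18.4 against 40.8 CPM (-1.14, -1.59 to -0.71). Insig1, at 43.2 against 84.0 CPM, and Srebf2, at 32.0 against 55.9 CPM, were lower by -0.96 and -0.80. In the LysM-DKO arms 8 of 25 members were lower with intervals away from 0, beside 13.8% of all genes, and none was higher, beside 27.2%. The median was 0.01 (0.16 over all genes), and Hsd17b7 alone passed the fold, beside 10.6%, at 19.9 against 67.1 CPM (-1.75, -2.17 to -1.36). Modulated wall markers moved with these ratios, at 2407, 2500, 20130 and 5093 CPM in fibroblasts, and chondrocyte-like markers (Acan, Chad, Comp, Sox9 and Col2a1) as well, at 201, 326, 4375 and 1363 CPM, with all genes of both lists seen in each library. The dissociation stress genes were lower on western diet, at 14080, 11640, 7160 and 9968 CPM in fibroblasts, 15830, 12170, 7898 and 9821 CPM in the Pecam1/Cdh5 class and 15230, 11140, 7533 and 8223 CPM in smooth muscle, with all 10 seen. In fibroblasts of the WT arms 5 of the 10 passed the fold, all lower. The part of these 3 lists in the ratios of the wall classes was not tested.

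In smooth muscle of the WT arms 11 of 27 members were lower with intervals away from 0, beside 31.8% of all genes, so the share among members was not far from that of all genes. The median was -0.13 (-0.01 over all genes), and 1 member passed the fold, beside 14.1%: Mvd, on 50 and 70 UMIs, at 1.45 against 3.02 CPM (-1.05, -1.61 to -0.51). In the LysM-DKO arms none passed, beside 19%, and the median was 0.01 (-0.05 over all genes). Hsd17b7, Srebf2, Insig1 and Lbr were lower on western diet in both genotypes, by -0.76 to -0.45. In the Pecam1/Cdh5 class 9 of 26 members were lower in the WT arms with intervals away from 0, beside 22.3% of all genes, with a median of -0.35 (-0.02 over all genes). The median turned to 0.41 after the smooth muscle share was subtracted, so its direction depended on that share. Hsd17b7 alone passed the fold there in both genotypes, at 8.27 against 18.5 CPM in the WT arms and 11.5 against 26.9 CPM in the LysM-DKO arms, beside 13.4% and 11.2% of all genes. In B cells of the WT arms none of 22 members passed, beside 10.1%, and the median was -0.01 (0.04 over all genes). In T cells of the WT arms the median was 0.28 (0.22 over all genes). In T cells Acat2 (-1.47, -3.08 to -0.38) and Ebp (1.27, 0.53 to 1.97) passed in the WT arms, beside 13.6%, and Lbr (1.03, 0.45 to 1.52) in the LysM-DKO arms, beside 7.14%. Ebp in T cells was at 0.43 when each barcode had equal weight. Insig1, lower on western diet in macrophages, was higher there in lymphocytes, within 2 fold. It was at 46.2 against 27.3 CPM in B cells of the WT arms. In T cells it was at 70.3 against 38.4 CPM in the WT arms. In T cells of the LysM-DKO arms it was at 74.5 CPM, on 9 UMIs, against 37.8 CPM.

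**Figure D3:**
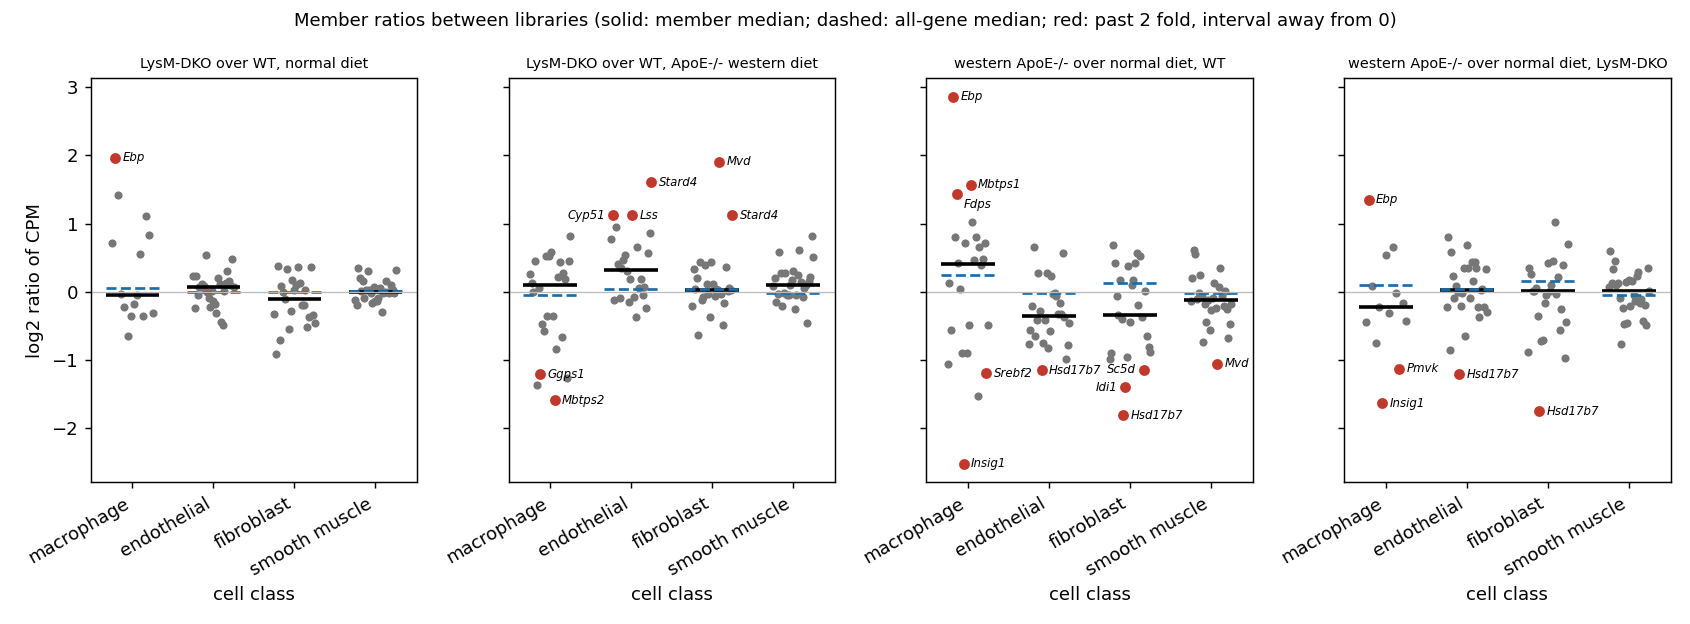
Each point is the log2 ratio of CPM of 1 member between 2 libraries, in 4 classes (the class labelled endothelial is the Pecam1/Cdh5 class) and 4 comparisons, with the member median as a solid line and the all-gene median dashed, and named red points are past the fold. Points gather near 0 for LysM-DKO over WT on normal diet, and Insig1 is the lowest macrophage point in both comparisons of western with normal diet.

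Insig1 was then followed within the macrophages, which were split by Lyve1 and Folr2, genes of resident vascular macrophages, and by Trem2 and Gpnmb, genes of lipid-loaded ones, at 2 UMIs of either pair. The 4 libraries held 34, 64, 21 and 39 Lyve1/Folr2 barcodes, 9, 16, 402 and 45 Trem2/Gpnmb barcodes and 45, 118, 450 and 43 with neither, and the mixture thus differed with diet. Barcodes positive for both pairs, 4, 10, 66 and 8, belong to none of these 3 subsets and are left out of the values below. In WT/ApoE-/- they held 479062 UMIs, against 73087 in the Lyve1/Folr2 barcodes, so the values there leave out most Lyve1/Folr2-positive RNA. Insig1 stood at 372, 296, 110 and 161 CPM in the Lyve1/Folr2 barcodes, at 212, 135, 46.5 and 52.0 CPM in those with neither, and at 31.3 and 20.1 CPM in the Trem2/Gpnmb barcodes of the western diet libraries. In every library the Lyve1/Folr2 barcodes were the highest of these 3 subsets, and both in those barcodes and in the ones with neither the normal diet values were above the western diet ones. On western diet the log2 ratio of Trem2/Gpnmb over Lyve1/Folr2 was -1.88 (-2.88 to -0.53) in WT/ApoE-/-, on 8 UMIs of the resident side, and -2.94 (-4.50 to -1.69) in LysM-DKO/ApoE-/-. Lbr and Ggps1 also passed the fold in WT/ApoE-/-, at -2.14 and -1.93 on 8 UMIs each, beside 10.9% of all genes, and Insig1 alone among 3 members with enough UMIs in LysM-DKO/ApoE-/-, beside 25.2%. Srebf2 was at 77.9, 51.6, 54.7 and 50.8 CPM in the Lyve1/Folr2 barcodes, and within each library their 95% Poisson intervals overlapped those of the other subsets. In WT/ApoE-/- they were 14.9 to 140.1 CPM in these barcodes and 10.1 to 21.7 CPM in the Trem2/Gpnmb ones. The same stress genes moved with Insig1 here as well, and their sum was 10640 to 14610 CPM in the Lyve1/Folr2 barcodes, 6265 to 10030 CPM in those with neither and 3492 to 4015 CPM in the Trem2/Gpnmb barcodes on western diet. Their part in the result was not tested.

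**Figure D4:**
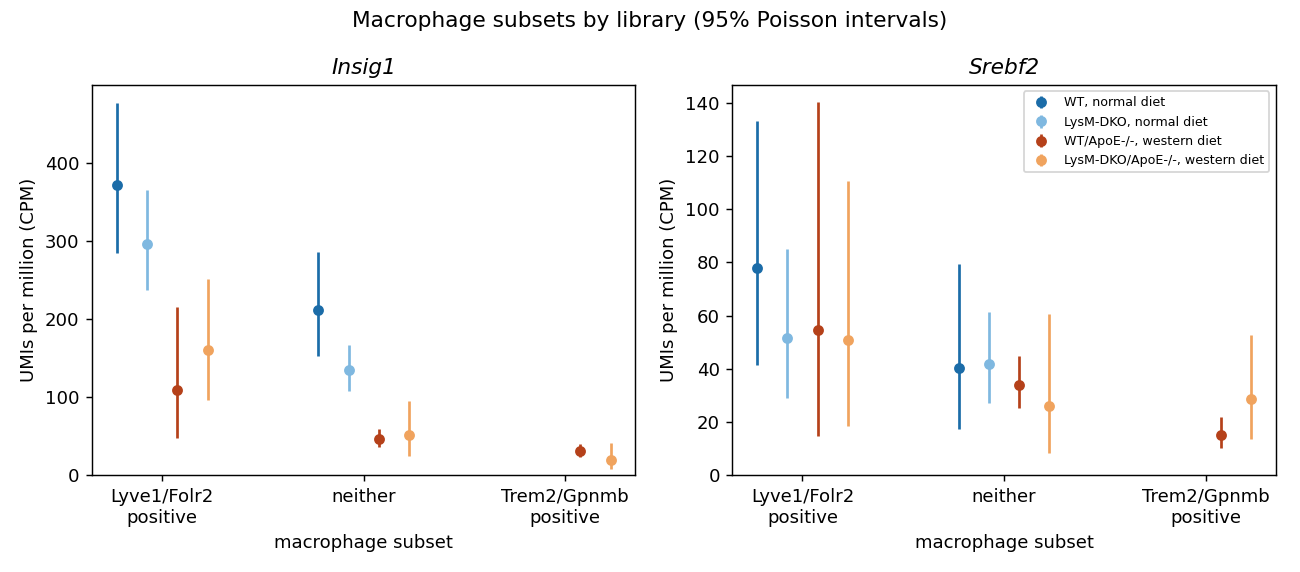
Points are levels in CPM of Insig1 and Srebf2 in 3 macrophage subsets of each library, with exact 95% Poisson intervals for counting error, on linear axes from 0, and subsets under 20 barcodes are not drawn. Barcodes positive for both gene pairs are not drawn either. Insig1 falls from 372 CPM in Lyve1/Folr2 barcodes of WT on normal diet to 20.1 CPM in Trem2/Gpnmb barcodes of LysM-DKO/ApoE-/- on western diet.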

How the data were processed

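Single cells of 4 samples of dissociated mouse aorta, 1 library per group, were measured with a 10x Chromium 3′ v3.1 kit. The deposited files hold counts of UMIs per gene and barcode, made by the authors with Cell Ranger, version 6.0.1 on normal diet and 6.1.2 on western diet, per the file headers. The submitters' processing notes name Cell Ranger 6.1.2, Seurat 4.1.0 and mm10.

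Barcodes under 1000 UMIs or over 10% mitochondrial UMIs were dropped, and the rest were classed by the first threshold met: C1qa, C1qb and C1qc at 5 UMIs, Cd79a and Ms4a1 at 2, Cd3d, Cd3e and Trac at 2, Pecam1 and Cdh5 at 2, Pdgfra and Serpinf1 at 3, Myh11 and Cnn1 at 3. No doublet caller was run. Barcodes that met 2 or more thresholds were 27.8, 33.0, 9.84 and 7.82% of those classed, and an alternative leaves them out. Smooth muscle comes last in the rule, so no barcode of that large class is among them, and the shares within other classes are higher. UMIs were summed per class and library, and sums under 20 barcodes were left out. Classes were compared with edgeR 4.0.16 in R 4.3.3 with Benjamini-Hochberg adjustment. Groups have 1 library each, so ratios between libraries carry exact binomial intervals and no test, with 0.5 UMIs added to each side. Levels carry exact Poisson intervals. UMIs remove amplification copies, and all intervals cover counting error only. Where a gene had 0 UMIs, the limit given is 3 counts. The class test was tested on simulated data. Python 3.11.15, numpy 2.4.6, scipy 1.17.1 and pandas 2.3.3 were used.

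The members and all gene lists were chosen with earlier results of these data known. Members called at an adjusted p of at most 0.05, or at least 2 fold apart on at least 20 UMIs with an interval away from 0, are named, as are Insig1, Insig2, Lbr, Tm7sf2, Srebf2 and Scap in every class. Alternatives changed the UMI and mitochondrial limits, class overlap, scaling, filter, block, tool (DESeq2 1.42.0) and the libraries used. Some genes of the pathway are not reported here.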

Additional observations from a re-analysis of the deposited data

How the results depend on the processing

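Of the 58 class calls on members, 53 held with DESeq2's scaling of library size, 53 with DESeq2, 51 without a filter on low counts, 52 with at least 2000 UMIs per barcode and 47 with no library block. Among barcodes that met only 1 class threshold 36 of the 50 calls that could be made again held. The number of members called in T cells, 12, became 5 among those barcodes, and the Lbr difference of the Pecam1/Cdh5 class turned from -0.55 to 0.14. The fibroblast number, 8, became 4 with no library block. Leaving out 1 library at a time gave 8 to 9 in macrophages, 5 to 9 in B cells, 7 to 12 in T cells, 5 to 7 in the Pecam1/Cdh5 class, 2 to 8 in fibroblasts and 10 to 12 in smooth muscle. The next 2 alternatives were chosen after seeing the data. With smooth muscle RNA subtracted, the median member ratio of the Pecam1/Cdh5 class was 0.45 for LysM-DKO over WT on normal diet (0.08 without) and 0.41 for western over normal diet in WT (-0.35 without). Without the Pecam1/Cdh5 class, 44 of 52 calls held. Stard4 in that class on western diet was at 0.73 with equal weight per barcode. The cause of these changes was not tested. No paired analysis was possible because each group is 1 library and the groups share no replicate beyond a single number. Macrophage ratios on normal diet rest on 92 barcodes of WT, which limits most members there.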

Other observations

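Genes that take sterol out of the cell or answer the sterol receptor LXR were compared between classes as well. Of 11 such genes, 10 were higher in macrophages and none was lower by edgeR's quasi-likelihood test, beside 21.1% and 22.4% of all genes, with a median log2 difference of 2.61. In smooth muscle 8 of 11 were lower and none was higher, beside 25.6% and 28.2%. Abcg1, the sterol exporter named in the series title, stood in macrophages at 25.1 CPM in WT on normal diet and 329 CPM in WT/ApoE-/- on western diet, on 12 and 1288 UMIs, a log2 ratio of 3.65 (95% interval 2.90 to 4.67). In the LysM-DKO arms it was at 42.7 and 259 CPM (2.59, 2.13 to 3.10). Ch25h, which makes a hydroxylated cholesterol, was lower on western diet, at 49.9 against 360.2 CPM in the WT arms (-2.85, -3.16 to -2.55) and 42.8 against 98.1 CPM in the LysM-DKO arms (-1.18, -1.83 to -0.60).

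Of 14 genes on the fatty acid side of SREBP, 2 were higher and 7 lower in macrophages by edgeR, where 21.1% of all genes were higher and 22.4% lower. In T cells 7 were higher and 5 lower, where 26.3% of all genes were higher and 29.8% lower. Scd1, a fatty acid desaturase, was at 8.38 CPM on 4 UMIs in macrophages of WT on normal diet, 49.05 CPM in those of LysM-DKO on normal diet and 55.7 CPM in those of WT/ApoE-/- on western diet. Its ratio of western over normal diet was 2.57 (1.36 to 4.62) in the WT arms and did not pass the fold in the LysM-DKO arms. The isoprenoid and ubiquinone branch had 1 higher and 4 lower of 10 in macrophages, and the sterol-regulated degradation genes 4 higher and 2 lower of 10. Of 10 dissociation stress genes, 3 were higher and 3 lower in macrophages, near the shares of all genes, and 8 were lower in B cells, beside 28% of all genes.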
